A study of Mus musculus with 18 samples.

Results

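Transcripts of 8 genes of cholesterol synthesis were followed in sorted cells of the Tcf21 lineage from the neonatal mouse heart. The genes were Hmgcs1, Sqle, Idi1, Fdft1, Fdps, Lss, Dhcr7 and Srebf2, taken by name from the deposited count table, and all 8 were found among its 55453 gene symbols. All 8 also passed the filter on low counts, which kept 16170 genes. Of the 8, 7 encode enzymes of the pathway and Srebf2 encodes its transcription factor. None encodes a receptor or carrier of cholesterol uptake, so uptake genes are given as a list of their own.

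The cells came from C57BL/6J pups of the cross Tcf21-MerCreMer; Rosa-mTmG, given tamoxifen at P1. Both alleles were heterozygous, per the study's methods, in all groups. The inducible Cre is driven from the Tcf21 locus, and the reporter then turns from tdTomato to membrane GFP, which marks resident cardiac fibroblasts. The GFP+ cells of the ventricular apex were sorted from un-manipulated pups at P2 or P10 (P2 baseline, P10 baseline), or 3 days after sham surgery or apical resection at either age. The groups operated on at P2 (P2 sham, P2 resected) were therefore collected at P5 and those operated on at P10 (P10 sham, P10 resected) at P13. Each of the 6 groups had 3 libraries, 18 in all, and the question was how fibroblasts inside the early period of cardiac regeneration differ from those after it, with and without injury. Sex, and how many pups went into a library, are not stated in the sources used here, so the p-values measure the spread between these libraries, part of which may be technical. Enzymatic digestion of the tissue was longer for P10 and P13 hearts than for P2 and P5 hearts, and this cannot be told apart from age.

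Cells make cholesterol from acetyl-CoA through mevalonate, the isoprenyl diphosphates, squalene and lanosterol. Hmgcs1 makes the precursor of mevalonate, Idi1 interconverts the isopentenyl diphosphates, and Fdps joins them into farnesyl diphosphate, from which isoprenoids other than sterols also branch. Fdft1 condenses farnesyl diphosphate to squalene, Sqle epoxidizes squalene, Lss closes the rings to lanosterol, and Dhcr7 carries out a last reduction to cholesterol. When membrane sterol is low, the product of Srebf2, SREBP-2, is carried by Scap from the endoplasmic reticulum to the Golgi and cleaved there. The released fragment activates the genes of the pathway and its own gene, while the Insig proteins hold the precursor back when sterol is plentiful.

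Promoter sequence is shown for Hmgcs1, at the entry of the pathway, and for Srebf2, since their windows held the letters of a sterol regulatory element, and for Idi1, whose window did not. RefSeq entries with a start site on GRCm38.p6 were found for 5 of the 8 genes (Hmgcs1, Idi1, Lss, Dhcr7 and Srebf2), in 7 windows of the 250 bases before the start. The windows were searched on both strands for TCACNCCA, a form of the sterol regulatory element, for CCAAT, the core of NF-Y sites, and for GGGCGG, the core of Sp1 sites. These motifs were chosen after the windows had been read. Capitals mark TCACNCCA and CCAAT on either strand, all 3 stretches lie on the plus strand, and the coordinates are chr13:119690101-119690350, chr15:82147019-82147268 and chr13:8885356-8885605.
Hmgcs1: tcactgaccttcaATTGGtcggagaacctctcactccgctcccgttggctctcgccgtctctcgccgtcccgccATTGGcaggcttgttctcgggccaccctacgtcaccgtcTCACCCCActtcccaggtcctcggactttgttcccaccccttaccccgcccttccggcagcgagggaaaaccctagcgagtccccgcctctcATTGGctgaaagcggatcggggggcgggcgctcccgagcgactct
Srebf2: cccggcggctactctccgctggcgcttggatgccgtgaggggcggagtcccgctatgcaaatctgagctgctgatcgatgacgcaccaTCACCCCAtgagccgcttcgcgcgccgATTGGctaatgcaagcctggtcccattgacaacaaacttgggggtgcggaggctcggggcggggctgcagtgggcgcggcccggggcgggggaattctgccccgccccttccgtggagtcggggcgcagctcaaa
Idi1: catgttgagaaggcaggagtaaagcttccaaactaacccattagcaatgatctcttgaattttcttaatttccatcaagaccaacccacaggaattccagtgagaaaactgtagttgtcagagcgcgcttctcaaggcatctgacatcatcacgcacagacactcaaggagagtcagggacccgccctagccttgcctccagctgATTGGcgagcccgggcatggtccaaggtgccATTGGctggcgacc

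TCACNCCA occurred in 2 of the 7 windows, 137 bases before the start in Hmgcs1 and 162 bases before it in Srebf2, against 3.67% of the 32851 windows of all genes. CCAAT occurred in 5 of the 7 windows, against 33.8% of all, and GGGCGG in 6 of the 7, against 32.7%. Hmgcs1 had 3 CCAAT matches, Idi1 had 2, and Lss and Srebf2 had 1 each. The 3 windows of Dhcr7 held 2 in all, both in its most downstream window. A match of letters is a description and does not show that a factor binds there. Since the motifs were chosen from these windows, and 3 of the 7 belong to Dhcr7, the shares do not test an excess.

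The libraries held 10462737 to 22980554 counted reads, with a median of 19547977, and P10 baseline replicate 3 was the shallowest library. By a chi-square of counts per gene, replicate 1 of P2 sham, P10 baseline and P10 sham stood apart, at 304 and 171, 156 and 156, and 145 and 159 from the other libraries of its group, which were 74.9, 33.0 and 34.5 from each other. Comparisons were therefore also fitted without these 3 libraries, a choice made after the data had been seen. Levels are given as counts per 1000000 counts (CPM) after TMM scaling of the library sizes. Differences are log2 fold changes with standard errors (SE) from edgeR's quasi-likelihood test of all 18 libraries in 1 fit, and a gene was called when its Benjamini-Hochberg adjusted p over all 16170 genes was under 0.05. The sorted cells carried the fibroblast markers, with Tcf21 at 203 to 448 CPM and Pdgfra at 256 to 878 CPM in the libraries. In such bulk RNA a lower share of expressing cells and less RNA per cell cannot be told apart.

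The positions of the genes and the reads they could share with other genes differed, and this bears on how firmly each can be read. On GRCm38, Hmgcs1 lies on the plus strand at chr13:119690379-119708260, Idi1 on the plus strand at chr13:8885501-8892451 and Fdps on the minus strand at chr3:89093588-89101959. Fdft1 lies on the minus strand at chr14:63145150-63179578, and the others on the plus strand, Sqle at chr15:59315077-59331192, Lss at chr10:76531588-76557138, Dhcr7 at chr7:143823145-143848410 and Srebf2 at chr15:82147181-82205379. Counting summed the exons of each symbol without regard to strand and, by the counter's default, left out reads that fit several genes or places. Of the stretches of 75 bases, the read length, in the longest coding transcript, none was shared with another gene for Sqle, Dhcr7 and Srebf2, and 2.74% for Lss. For Hmgcs1 the share was 12.2%, for Fdft1 25.4%, for Idi1 29.1% and for Fdps 80.4%, mostly with processed copies, an antisense gene or, for Fdps, an overlapping locus on the same strand. The exons of Fdft1 overlap those of Ctsb, which lies on the opposite strand and had 8428 to 21541 counts in a library against 61 to 440 for Fdft1. Values for Fdps, Idi1 and Fdft1 are therefore less certain than those for Sqle, Dhcr7 and Srebf2.

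Per kilobase of annotated exons, Srebf2 and Hmgcs1 had the highest levels, at 10.1 ± 3.67 and 9.53 ± 3.98 CPM per kb (mean ± SD, n = 18). Dhcr7 followed at 4.11 ± 1.21, Sqle at 2.41 ± 1.54 and Fdft1 at 2.37 ± 1.28 CPM per kb. Idi1 (0.545 ± 0.369), Lss (0.527 ± 0.271) and Fdps (0.368 ± 0.206) were lowest. Neighbours in this order, such as Srebf2 and Hmgcs1 or Sqle and Fdft1, lay within each other's SD, and the SD here includes the differences between groups. The mean per kilobase of Srebf2 was above that of 72.4% of the genes tested and that of Fdps above 18.2%. The exon bases were 10787 for Lss and 4208 for Fdps, while their longest coding transcripts held 4593 and 1308 stretches of 75 bases. With other lengths the order could change. For Fdps 80.4% of these stretches were shared with other genes and such reads were left out, so its level may be understated. Idi1 had 6 to 72 counts in a library and Fdps 3 to 63, so single libraries of these 2 genes are imprecise.

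For each of the 8 genes the group with the lowest mean was P10 sham or P10 resected, the groups collected at P13. Sqle showed this most plainly, since all 6 libraries of these groups were below every one of the other 12. Over the whole P10 period, taken as the 9 libraries of P10 baseline, sham and resected against the 9 of P2, Fdft1 fell by 1.0 on the log2 scale, and no other member was called. Of all genes, 13.5% were called there. At baseline, by contrast, 7 of the 8 genes had a higher fitted level at P10 than at P2, and none was called, where 4.38% of all genes were. Resection against sham surgery gave no call for any of the 8 genes at either age, as for all genes (0% called).

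**Figure D1:**
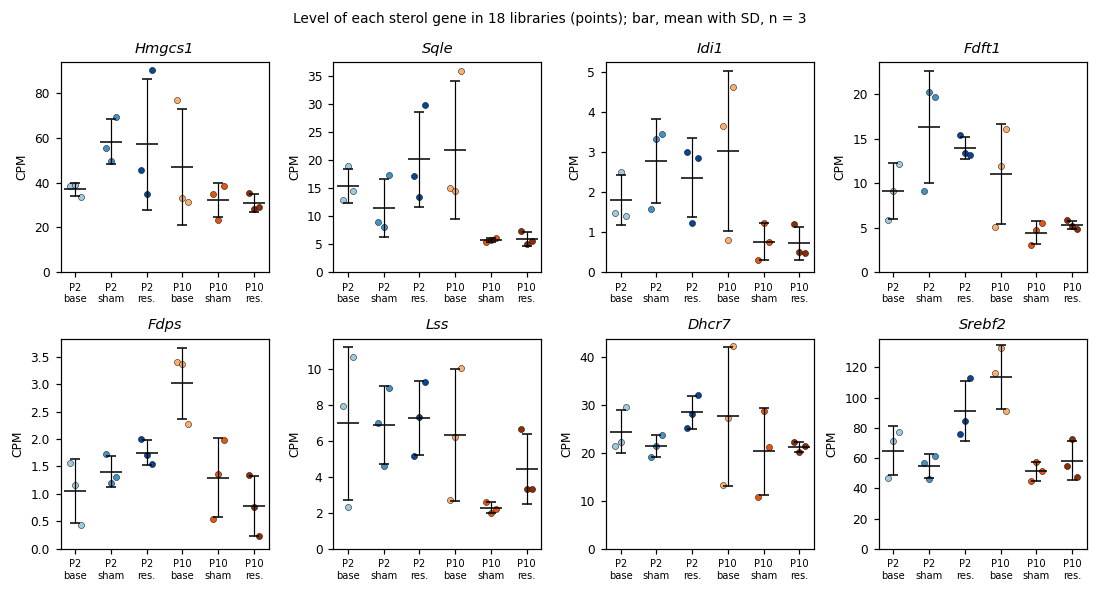
CPM (y axis, from 0) of each of the 8 sterol genes in every library, by group (x axis; base, un-manipulated; sham and res., 3 days after sham surgery or resection). Points are libraries and bars the mean with SD (n = 3). For Sqle the 6 P10 sham and P10 resected libraries sit between 5.02 and 7.31 CPM and the other 12 between 8.02 and 35.9 CPM.

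The first enzyme among the 8 is Hmgcs1, the synthase before mevalonate. It stood at 38.7, 38.9 and 33.8 CPM in P2 baseline, at 55.6, 49.8 and 69.6 CPM in P2 sham and at 45.7, 35.1 and 90.6 CPM in P2 resected. In P10 baseline it stood at 76.9, 33.2 and 31.2 CPM, in P10 sham at 34.9, 23.5 and 38.4 CPM, and in P10 resected at 35.3, 28.1 and 29.1 CPM. P10 baseline replicate 1 and P2 resected replicate 3 were the high libraries, and the P10 sham libraries lay below all P2 sham libraries, with a log2 fold change of -0.85 (SE 0.37, adjusted p = 0.264). Between P2 baseline and P2 sham the groups did not overlap either, with higher values after sham surgery (log2 fold change 0.65, SE 0.37, adjusted p = 0.710).

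Idi1 and Fdps, the enzymes that lead to farnesyl diphosphate, had few counts. Of their stretches of 75 bases, 29.1% and 80.4% were shared with other genes, and such reads were left out. Their transcripts may therefore be less scarce than the counts. Idi1 read 1.47, 2.51 and 1.40 CPM in P2 baseline, 1.58, 3.32 and 3.46 CPM in P2 sham and 2.99, 1.24 and 2.86 CPM in P2 resected. It read 3.64, 0.803 and 4.64 CPM in P10 baseline, but 0.300, 1.23 and 0.754 CPM in P10 sham and 1.19, 0.508 and 0.466 CPM in P10 resected. The 6 P13 libraries held 6 to 24 counts of Idi1, P10 baseline replicate 2 was as low with 15, and the log2 fold change of P10 sham against P2 sham was -1.87 (SE 0.87, adjusted p = 0.295). Fdps was highest in P10 baseline, at 3.4, 3.37 and 2.27 CPM, above all libraries of P2 baseline at 1.56, 1.16 and 0.427 CPM. In P10 resected it read 1.34, 0.763 and 0.233 CPM, below all P2 resected libraries at 1.99, 1.71 and 1.54 CPM. Neither difference was called, with log2 fold changes of 1.51 (SE 0.85, adjusted p = 0.359) and -1.15 (SE 0.84, adjusted p = 0.862).

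Fdft1, which commits farnesyl diphosphate to sterols, was the member with the most calls. It had 5.89, 9.12 and 12.2 CPM in P2 baseline, 9.10, 20.3 and 19.6 CPM in P2 sham and 15.4, 13.4 and 13.2 CPM in P2 resected. At P10 it had 5.04, 11.9 and 16.1 CPM at baseline, 3.05, 4.72 and 5.56 CPM after sham surgery and 5.82, 5.15 and 4.90 CPM after resection. The P13 groups did not overlap with the P5 group of the same surgery, while the baseline groups overlapped, with P10 baseline replicate 3 above and replicate 1 below all P2 baseline libraries. Over all groups Fdft1 had a mean of 6.92 ± 4.22 CPM at P10 (SD, n = 9), and the log2 fold change against P2 was -1.0 (SE 0.26, adjusted p = 0.0171), a call that was lost without the filter on low counts (adjusted p = 0.0548). After sham surgery the log2 fold change was -1.88 (SE 0.47, adjusted p = 0.0356), a call that was lost when any of P10 sham replicates 1, 2 and 3 or P2 sham replicates 2 and 3 was left out (adjusted p = 0.146, 0.101, 0.0721, 0.102 and 0.107). That call was also lost without the filter (adjusted p = 0.0713) and when only the groups compared were fitted (adjusted p = 0.199). After resection it was -1.40 (SE 0.46, adjusted p = 0.240). Ctsb, the overlapping gene on the other strand, differed in the opposite direction in all of these comparisons. Its log2 fold change was 0.93 between the periods (SE 0.13, adjusted p = 7.27e-05), 0.97 after sham surgery (SE 0.22, adjusted p = 0.0175) and 1.02 after resection (SE 0.22, adjusted p = 0.0306), and its part in the values of Fdft1 was not tested.

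Sqle, a rate-limiting monooxygenase of the sterol branch, read 12.9, 18.8 and 14.4 CPM in P2 baseline, 8.96, 8.02 and 17.4 CPM in P2 sham and 17.1, 13.5 and 29.7 CPM in P2 resected. In P10 baseline it read 14.9, 14.5 and 35.9 CPM. The P13 libraries were close together, at 5.29, 5.76 and 6.04 CPM after sham surgery and at 7.31, 5.02 and 5.52 CPM after resection. Despite this separation no planned comparison called Sqle. Its log2 fold change was -0.75 (SE 0.25, adjusted p = 0.0531) between the P10 and P2 periods, -1.75 (SE 0.44, adjusted p = 0.0755) after resection and -1.93 (SE 0.44, adjusted p = 0.292) for P10 sham against P10 baseline. The first of these passed the threshold without P10 baseline replicate 3 (adjusted p = 0.0159), without P2 sham replicate 1 (0.0469) and without P2 sham replicate 2 (0.0432).

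Lss, the cyclase, spread widely within groups. It read 7.92, 2.33 and 10.7 CPM in P2 baseline and 2.73, 6.21 and 10.1 CPM in P10 baseline, so the baseline groups overlapped fully. After sham surgery it read 2.60, 2.00 and 2.22 CPM at P10 against 7.01, 4.61 and 8.94 CPM at P2, with no overlap and a log2 fold change of -1.59 (SE 0.61, adjusted p = 0.201). P2 resected libraries had 5.16, 7.35 and 9.25 CPM and P10 resected libraries 6.66, 3.31 and 3.34 CPM. All 3 P10 resected libraries were above all P10 sham libraries, by a log2 fold change of 0.96 (SE 0.61, adjusted p = 1.0).

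Dhcr7, the last enzyme of the series, varied least between groups. Group means were 24.4 ± 4.50 CPM in P2 baseline, 21.3 ± 2.29 in P2 sham and 28.4 ± 3.40 in P2 resected (SD, n = 3). They were 27.6 ± 14.4 CPM in P10 baseline, 20.3 ± 9.01 in P10 sham and 21.3 ± 1.05 in P10 resected. The log2 fold change between the P10 and P2 periods was -0.11 (SE 0.22, 95% interval -0.56 to 0.35), and the largest spread was within P10 baseline, where replicates 1, 2 and 3 had 13.4, 27.2 and 42.2 CPM.

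Srebf2, the regulator, had the opposite order of ages at baseline and after resection. It read 46.5, 71.1 and 77.1 CPM in P2 baseline and 116, 133 and 91.1 CPM in P10 baseline, so every P10 library was higher (log2 fold change 0.81, SE 0.26, adjusted p = 0.0845). It read 75.6, 84.3 and 113 CPM in P2 resected and 54.8, 72.5 and 47.5 CPM in P10 resected, so every P10 library was lower (log2 fold change -0.64, SE 0.26, adjusted p = 0.410). After sham surgery it read 56.6, 46.3 and 61.7 CPM at P2 and 45.0, 57.7 and 51.2 CPM at P10, which overlapped. The difference between the age effect after resection and that at baseline, a test added after the data had been seen, was -1.45 (SE 0.36, adjusted p = 0.227) on the log2 scale. In this test of the difference edgeR called no member and 0.0557% of genes, and DESeq2 called Srebf2 and Sqle and 0.767% of genes. The same difference after sham surgery, also added, was -0.90 for Srebf2 (SE 0.36, adjusted p = 0.660) and -2.16 for Fdft1 (SE 0.65, adjusted p = 0.555). All 8 genes were lower in it, as were 54.6% of all genes, with a median of -1.47 beside -0.08, and 5 had an unadjusted p under 0.05, as had 6.60% of genes. It gave no call of a member by edgeR, which called 0 genes (0%), or by DESeq2, which called 0.631% of genes. P10 baseline was the highest of the 6 groups at 113 ± 21.1 CPM (SD, n = 3), followed by P2 resected at 91.0 ± 19.7 CPM, and the libraries of these groups overlapped.

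Read across the 8 genes, the comparisons of age gave few calls. Fdft1 was the single member called between the P10 and P2 periods, where 6.39% of all genes were called lower and 13.5% were called in all. An unadjusted p under 0.05 was found for 4 of 8, as for 28.3% of all genes, and DESeq2 called 2, Fdft1 and Sqle, as it did 18.7% of all genes. Of the 8 genes, 6 had lower fitted levels, as had 54.2% of all genes, with a median log2 fold change of -0.61 beside -0.06. Hmgcs1 was also called without P10 baseline replicate 1 (log2 fold change -0.65, adjusted p = 0.0246), and without the 3 libraries that stood apart Hmgcs1 and Fdft1 were called (adjusted p = 0.0219 for Hmgcs1). At baseline no member was called by edgeR, where 4.38% of all genes were, and 1 had an unadjusted p under 0.05 (Srebf2), as had 18.7% of genes. DESeq2 called Srebf2 alone, with an adjusted p of 0.0136, and 9.73% of all genes. Of the 8 genes 1 was lower, as were 51.2% of all genes, the median was 0.42 beside -0.03, and the groups did not overlap for Fdps and Srebf2, both higher at P10, as for 10.3% of all genes. The median was 0.12 without P10 baseline replicate 3, where the fitted differences of Sqle, Fdft1 and Dhcr7 fell below 0 (-0.07, -0.09 and -0.27), and that of Hmgcs1 was -0.20 without P10 baseline replicate 1. Without the 3 libraries that stood apart it was 0.61, with no member called.

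After surgery all 8 genes had lower fitted levels at P13 than at P5 in both arms, beside 54.3% of all genes after sham surgery and 52.6% after resection. Between the sham groups Fdft1 was called, where 3.18% of all genes were and 1.65% were lower, and 5 had an unadjusted p under 0.05, as had 16.3% of genes. DESeq2 also called Fdft1 alone, with 7.31% of all genes. Hmgcs1, Sqle, Idi1, Fdft1 and Lss were lower without overlap, 5 of 8, as were 7.61% of all genes. The median was -0.93 beside -0.07. Between the resected groups no member was called by edgeR, where 0.860% of genes were. An unadjusted p under 0.05 was found for 4, as for 8.77% of genes, and DESeq2 called Fdft1 and Sqle and 3.12% of genes. Sqle, Idi1, Fdft1, Fdps, Dhcr7 and Srebf2, 6 of 8, were lower without overlap, as were 12.7% of all genes, and the median was -1.02 beside -0.04. Leaving out each library in turn gave medians from -1.07 to -0.64 for the sham groups and from -1.30 to -0.77 for the resected groups. Without the 3 libraries that stood apart, 5 of the 8 genes were lower between the sham groups, with a median of -1.02 and Fdft1 called. Between the resected groups, none of whose libraries was left out, Sqle and Fdft1 were then called (adjusted p = 0.0378 each).

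P10 sham against P10 baseline holds both the operation and the 3 days from P10 to P13, which cannot be told apart, and it shares the P10 sham libraries with the sham comparison of ages. All 8 genes had lower fitted levels after sham surgery, as had 51.3% of all genes, with a median log2 fold change of -1.26 beside -0.02 for all genes, and the median ranged from -1.48 to -1.08 with single libraries left out. Without the 3 libraries that stood apart all 8 were lower, with a median of -1.24 and no call. No member was called by edgeR, which called 1 of 16170 genes (0.00618%), but 5 had an unadjusted p under 0.05, as had 7.40% of genes. DESeq2 called Sqle and Srebf2, and 124 genes in all (0.767%). Sqle, Fdps, Lss and Srebf2 were lower without overlap, 4 of 8, as were 4.69% of all genes. Srebf2 had a log2 fold change of -1.15 (SE 0.26, adjusted p = 0.292), with 51.3 ± 6.35 CPM after sham surgery against 113 ± 21.1 CPM at baseline. Without P10 baseline replicate 1 the log2 fold change of Hmgcs1 was 0.004, and the other 7 were lower.

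**Figure D2:**
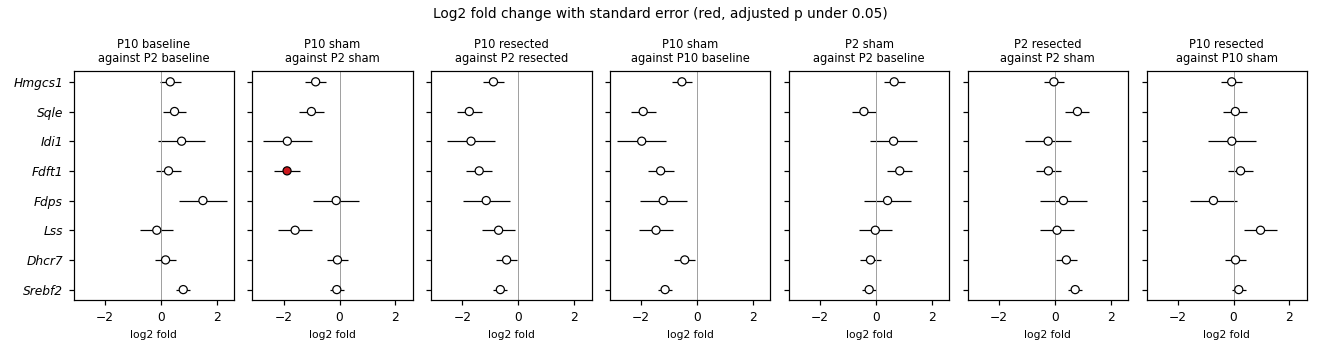
Log2 fold change (x axis) of each of the 8 genes (y axis) in 7 comparisons, with SE as bars; red points have an adjusted p under 0.05 in edgeR's quasi-likelihood test. The points lie left of 0 for all 8 genes in the P10 sham and P10 resected groups against the P2 groups of the same surgery, and Fdft1 after sham surgery is the single red point.

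The P13 libraries were then set against the P5 libraries over both surgeries, a contrast added after the data had been seen. Fdft1 fell by 1.64 on the log2 scale (SE 0.33, adjusted p = 0.00458) and Sqle by 1.38 (SE 0.31, adjusted p = 0.00992), with 7.24% of all genes called, 3.53% lower. All 8 genes had lower fitted levels, as had 55.0% of all genes, 5 had an unadjusted p under 0.05, as had 20.4%, and DESeq2 called 4, Fdft1, Sqle, Hmgcs1 and Idi1, with 11.2% of genes. Fdft1 and Sqle kept their calls under all 19 alternatives in which this contrast was fitted. Sqle, Idi1 and Fdft1, 3 of 8, were lower in all 6 P13 libraries than in all 6 P5 libraries, as were 2.57% of all genes. Hmgcs1 had a log2 fold change of -0.87 (SE 0.26, adjusted p = 0.0537), and was called without P2 resected replicate 2 (adjusted p = 0.0384). Against P10 baseline alone, also added, the 6 P13 libraries gave -1.90 for Sqle (SE 0.36, adjusted p = 0.0783) and -1.05 for Srebf2 (SE 0.21, adjusted p = 0.0944), and edgeR called no member and 0.0124% of all genes. All 8 had lower fitted levels, as had 52.3% of genes, and 5 had an unadjusted p under 0.05, as had 8.29%. DESeq2 called Sqle and Srebf2 and 1.44% of genes, and Sqle, Fdps and Srebf2, 3 of 8, were lower in all P13 libraries than in all P10 baseline libraries, as were 1.68% of genes.

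Markers of other cells moved with age and partly with these results. The summed CPM of 12 proliferation genes was 1046 to 1824 in the P2 libraries and 187 to 527 in the P10 libraries, and all 12 were called lower between the periods. In P10 baseline it was 272 to 524 CPM. The sum of 11 macrophage genes was 75.8 to 1102 CPM in the 6 P13 libraries and 7.75 to 452 CPM in the other 12, with 1 of the 11 called higher between the periods. The sum of 10 cardiomyocyte genes was 309 to 1452 CPM at P2 and 156 to 809 CPM at P10, with 6 called lower, and Myh7 was at 0 in P10 sham. The sum of 8 endothelial genes was 173 to 478 CPM at P2 and 252 to 491 CPM at P10, with no call. Tek was the largest part of it, at 154 to 454 CPM in the libraries, and the highest value of the others was 68.15 CPM, for Kdr. The sum of 8 mural cell genes was 466 to 1244 and 861 to 1892 CPM, with 3 called higher. That of 7 epicardial genes was 1.57 to 20.9 and 0 to 55.2 CPM, with no call and Wt1 at 0 in P10 baseline. Adipocyte genes were at or near 0, and none of 6 passed the filter. The 8 fibroblast genes summed to 39030 to 78140 CPM at P2 and 68470 to 99680 CPM at P10, with 4 called higher. Col3a1 was the largest part of this sum, at 22070 to 58440 CPM in the libraries. The part of these markers in the levels of the sterol genes was not tested.

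Apical resection was set against sham surgery of the same age to see whether injury altered these genes in fibroblasts. At P2 no member was called by edgeR, which called 0 of 16170 genes (0%), and 1 had an unadjusted p under 0.05, as had 4.51% of genes. This was Srebf2, with a log2 fold change of 0.73 (SE 0.26, 95% interval 0.19 to 1.27, adjusted p = 1.0). The resected libraries were above all sham libraries for Srebf2 and Dhcr7, 2 of 8, as for 5.62% of all genes. At P10 no member was called and none had an unadjusted p under 0.05 beside 4.09% of genes, and Lss alone was separated, 1 of 8, as were 5.63% of genes with higher values after resection. DESeq2 called 25 and 39 genes in these comparisons (0.155% and 0.241%) and no member. The 95% interval of the log2 fold change of Sqle was -0.09 to 1.72 at P2 and -0.85 to 0.97 at P10, so at P2 a difference above 1 was not excluded for this gene. At P10 the interval was -0.31 to 2.24 for Lss, -1.85 to 1.73 for Idi1 and -2.49 to 1.05 for Fdps. At P2 it was -1.99 to 1.52 for Idi1 and -1.44 to 2.06 for Fdps, so differences above 1 were not excluded for these either. For Hmgcs1 it stayed within 1 of 0, at -0.81 to 0.74 at P2 and -0.84 to 0.71 at P10.

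The effect of resection over both ages and the difference between the ages gave no call either. Over both ages Srebf2 had a log2 fold change of 0.46 (SE 0.18, adjusted p = 0.744) and was the single member with an unadjusted p under 0.05, and the median of the 8 genes was 0.13 beside 0.03 for all genes. The difference of the resection effect at P10 from that at P2 was -0.55 for Srebf2 (SE 0.36, adjusted p = 1.0) and -0.75 for Sqle (SE 0.61, adjusted p = 1.0), and no member had an unadjusted p under 0.05. In both comparisons edgeR called no gene, or 0%, with 934 and 465 genes at an unadjusted p under 0.05 (5.78% and 2.88%), and DESeq2 called 68 and 24 genes (0.421% and 0.148%) and no member. For P2 sham against P2 baseline edgeR likewise called 0 genes (0%), no member had an unadjusted p under 0.05 beside 7.60% of genes, and DESeq2 called 138 genes (0.853%) and no member. Hmgcs1 was higher without overlap there, 1 of 8, as were 4.48% of genes. Its 95% interval, -0.13 to 1.43, holds 0 as well as differences above 1. Without the 3 libraries that stood apart edgeR called 913 genes for resection over both ages, 26 for P2 resected against P2 sham and 463 for P2 sham against P2 baseline, and no member in any of them.

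The other genes of the pathway were described from 6 lists. Among 13 other sterol synthesis enzymes no gene was called in any of the 10 planned comparisons, where 0% to 13.5% of all genes were called. Their median log2 fold change between the periods was -0.06, the same as for all genes. For P10 sham against P10 baseline it was -0.02, also as for all genes. The medians of the 8 genes in these comparisons were -0.61 and -1.26. For P10 resected against P2 resected 9 of the 13 enzymes were lower, with a median of -0.49 beside -0.04 for all genes and -1.02 for the 8 genes. In the added contrast of P13 against P5, where 3.53% of all genes were called lower, 1 of the 13 was called lower, which is not named here, and the median was -0.17 beside -0.07 for all genes.

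**Figure D3:**
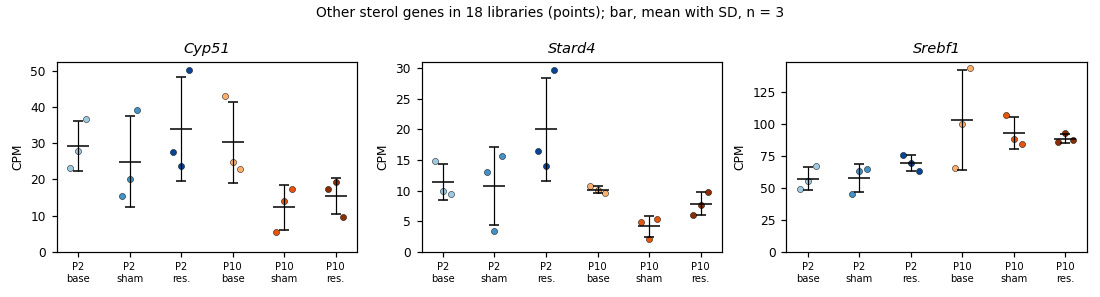
CPM (y axis, from 0) of Cyp51, Stard4 and Srebf1 in every library, by group (x axis, as in the plot of the 8 genes), with mean and SD (n = 3). Stard4 lies between 2.13 and 9.79 CPM in the 6 libraries of P10 sham and P10 resected, and Srebf1 has 8 of its 9 P10 libraries above all P2 libraries.

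Of the 6 genes that control SREBP, 3 were called higher in the P10 period, where 13.5% of all genes were called in either direction. Srebf1, which encodes SREBP-1, the factor tied more to fatty acid synthesis, had a log2 fold change of 0.63 (SE 0.15, adjusted p = 0.00752), with 95.2 CPM on average against 61.6 CPM. Insig2, a retention factor, had 0.55 (SE 0.17, adjusted p = 0.0331) and Mbtps1, the site-1 protease, 0.43 (SE 0.13, adjusted p = 0.0389). Insig1, itself a target of SREBP, had -0.08 (SE 0.30, adjusted p = 0.924), and P10 baseline replicate 1 and P2 resected replicate 3 were high for it at 73.5 and 66.8 CPM, as they were for Hmgcs1.

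Of 10 genes of uptake and lysosomal release that were tested, 3 were called higher and 1 lower between the periods, and 1 was called higher at P10 in the baseline comparison, not all of them named here. Of all genes, 13.5% were called between the periods and 4.38% at baseline. Mylip, a ubiquitin ligase of lipoprotein receptors, rose between the periods by 0.74 on the log2 scale (SE 0.20, adjusted p = 0.0168) and the lipoprotein receptor gene Vldlr by 0.89 (SE 0.27, adjusted p = 0.0348). For Vldlr the libraries that stood apart were the highest of P2 sham, P10 baseline and P10 sham, at 39.1, 40.9 and 68.0 CPM. The other libraries of these groups had 15.2 to 33.3 CPM. Stard4, a sterol carrier, read 14.8, 9.91 and 9.44 CPM in P2 baseline, 13.1, 3.46 and 15.6 CPM in P2 sham and 16.5, 14 and 29.7 CPM in P2 resected. It read 10.7, 10.1 and 9.67 CPM in P10 baseline, 4.90, 2.13 and 5.42 CPM in P10 sham and 6.01, 7.69 and 9.79 CPM in P10 resected. P2 resected replicate 3 was its highest library, and P2 sham replicate 2 was as low as the P10 sham libraries. Between the periods Stard4 fell by 0.96 (SE 0.29, adjusted p = 0.0365), and in the added contrast of P13 against P5 by 1.36 (SE 0.36, adjusted p = 0.0280).

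Among 9 genes of efflux, esterification and the LXR receptors, Cyp27a1, Apoe and Nr1h2 were called higher and Soat1 lower in the P10 period, where 13.5% of all genes were called and 6.39% were called lower. Cyp27a1, which makes an oxysterol, had 71.0 CPM on average against 23.6 CPM (log2 fold change 1.65, SE 0.32, adjusted p = 0.00179). The libraries that stood apart were high for it, at 68.2 CPM in P2 sham against 14.7 and 12.5 CPM in replicates 2 and 3. In P10 baseline replicates 1, 2 and 3 had 94.1, 47.8 and 55.6 CPM, and in P10 sham 120, 71.5 and 68.65 CPM. Apoe, the apolipoprotein, differed by 0.84 (SE 0.21, adjusted p = 0.0133) and Nr1h2, which encodes LXR-beta, by 0.53 (SE 0.12, adjusted p = 0.00528). Soat1, which esterifies cholesterol for storage, fell by 0.67 (SE 0.13, adjusted p = 0.00219). At baseline, where 4.38% of all genes were called, Cyp27a1 and Nr1h2 were called higher at P10 by 2.20 (SE 0.56, adjusted p = 0.0322) and 0.95 (SE 0.21, adjusted p = 0.0128). In the fatty acid list of 8, Acss2 (0.93, SE 0.21, adjusted p = 0.00530) and Scd1 (0.51, SE 0.15, adjusted p = 0.0315) were called higher between the periods, beside the same 13.5% of all genes. In the isoprenoid list of 8 no gene was called in any comparison, beside 0% to 13.5% of all genes. In the other 8 planned comparisons, which share libraries with these, no gene of the 6 lists was called, where 0% to 3.18% of all genes were.

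**Figure D4:**
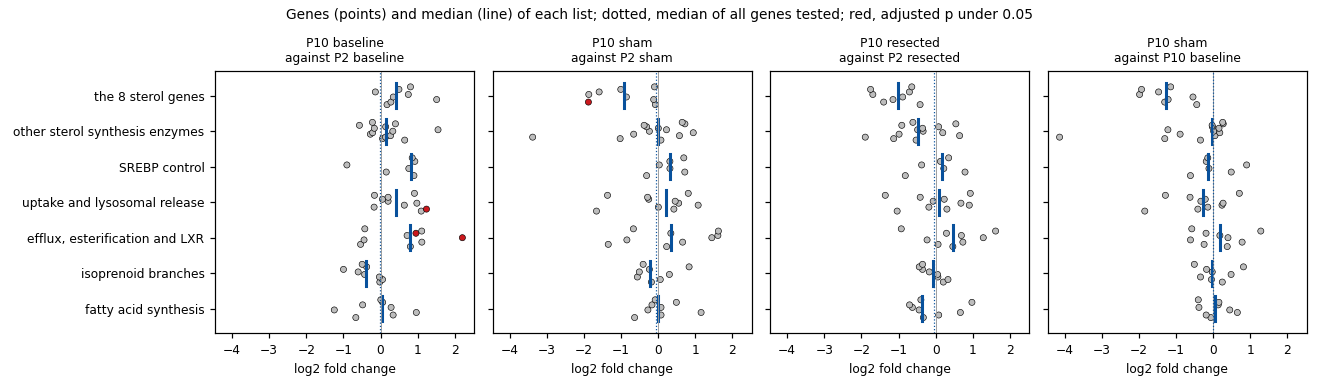
Log2 fold change (x axis) of each gene tested in the 7 lists (y axis) in 4 comparisons. Blue lines are list medians, the dotted line is the median of all genes tested, and red points have an adjusted p under 0.05. In P10 sham against P10 baseline the median of the 8 sterol genes is -1.26 and that of the 13 other sterol synthesis enzymes -0.02.

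How far the 8 genes varied together was described by Pearson's r of log2 CPM over the 18 libraries, which share depth and group differences. Of the 28 pairs, 12 had an r above 0.5 and 1 was negative, with a median of 0.43. Sqle and Idi1 were the closest pair (0.77), followed by Idi1 and Fdft1 (0.70) and Sqle and Fdft1 (0.68). With the group means removed the median was 0.14 and 9 of 28 pairs were negative, and Fdft1 with Dhcr7 was the closest pair (0.78). Hmgcs1 with Dhcr7 was lowest on both scales, at -0.17 and -0.49.

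**Figure D5:**
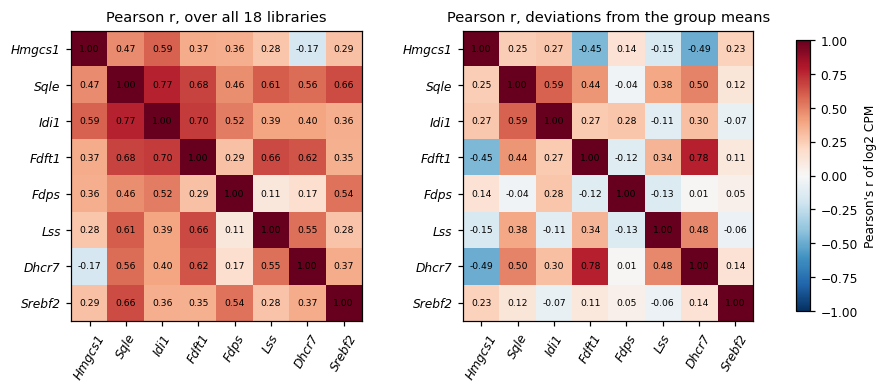
Pearson's r of log2 CPM for each pair of the 8 genes, over all 18 libraries (left) and after the group means were removed (right), on a colour scale from -1 to 1. Sqle, Idi1 and Fdft1 form the darkest block on the left, at 0.68 to 0.77, and of these pairs Sqle with Idi1 keeps 0.59 on the right.

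The genes outside the 8 whose level over the 18 libraries was most like the mean z-score of the 8 were Spon2 (r = 0.86), Efnb1 (0.83), Cyp51 (0.83), Marcksl1 (0.83), H2afy2 (0.82), F2rl1 (0.82), Etfdh (0.82) and Nrgn (0.81), out of 16162 genes. Cyp51, the lanosterol demethylase, was the single gene of these from the sterol lists. It read 23.1, 27.7 and 36.7 CPM in P2 baseline, 43.1, 24.7 and 22.9 CPM in P10 baseline, 5.49, 13.9 and 17.4 CPM in P10 sham and 17.2, 19.3 and 9.71 CPM in P10 resected. With the group means removed, r was 0.70 for Cyp51 and 0.39 to 0.70 for the other 7. Soat1 ranked 25 and Stard4 294 by the same measure.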

How the data were processed

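Tcf21-lineage cells were profiled by bulk RNA sequencing (SMARTer Ultra Low v4 amplification, Nextera XT libraries, single-end reads of 75 bases). Per the submitters' processing notes and methods, reads were trimmed with fastp 0.20.0, mapped with STAR 2.7.0f to GRCm38.p6 with GENCODE M22, and counted on exons per gene symbol with featureCounts of Subread 1.6.4, without strand. The deposited values are these raw counts, made by the authors without normalization. Reads that fit several genes or places are left out by the counter's default, which lowers counts of genes with copies. All 18 count columns were mapped to their samples by name.

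Counts were fitted in edgeR 4.0.16 (R 4.3.3), with limma 3.58.1 and DESeq2 1.42.0 for alternatives. Genes were kept by filterByExpr (minimum count 10, minimum total 15), libraries were scaled by TMM, and a quasi-likelihood model of all 18 libraries gave each group its own mean. The 10 planned comparisons were contrasts of group means, two-sided, with Benjamini-Hochberg adjustment over 16170 genes. The study's methods name DESeq2, which was run beside edgeR. The fits were tested on simulated counts with known changes. The 3 libraries of each group differed by more than counting noise (chi-square per gene 33.0 to 304 over 18 pairs).

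Replicate numbers are shared between groups. The deviations of same-numbered libraries from their group means correlated above 0.1 in every pair in 2 of the 7 comparisons of single groups, P10 resected against P2 resected (0.12 to 0.19) and P10 sham against P10 baseline (0.11 to 0.33), and a fit with the number as a block left the count of members called in both at 0. The labels do not say what a number marks. Most sample titles carry another number. It is the same for the libraries that stood apart, replicate 1 of P2 sham, P10 baseline and P10 sham, and no other library has it. The titles of P10 baseline replicates 2 and 3 also end in a P, and that of replicate 1 does not. By chi-square per gene these replicates 2 and 3 were 33.0 apart, and replicate 1 was 156 from each. What these marks mean is not stated, and their part in the comparisons with P10 baseline was not tested.

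Named are the 8 genes, Insig1 and Srebf1, listed genes called (at most 10 per list and comparison), and the 8 genes most like the members' mean z-score; Ctsb and the ranks of 2 listed genes were added after values were seen. Some genes of the lists are not reported here. The members, lists and tests were chosen with earlier results of these data known, and 4 contrasts were added after the data had been seen. Lists are described by counts and medians only. Positions and shared sequence come from GENCODE M21 on GRCm38, promoters from RefSeq. Levels per kilobase use all annotated exon bases of a symbol.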

Additional observations from a re-analysis of the deposited data

Results flagged for a closer look

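Srebf2 differed with age in opposite directions at baseline and after resection. All 3 P10 baseline libraries were above all P2 baseline libraries, and all 3 P10 resected libraries were below all P2 resected libraries. The difference between the age effects was -1.45 on the log2 scale (SE 0.36) with an adjusted p of 0.227 in edgeR's quasi-likelihood test, 0.00830 in DESeq2 and up to 0.789 without P10 resected replicate 3, so it was not called in the test used throughout. Fdps showed the same opposite separation, with a difference of -2.66 (SE 1.20, adjusted p = 0.803), at counts of 3 to 63 per library. These separations were noticed among the 8 genes after their values had been seen. Groups of 3 libraries were too small for a test of single outlying values.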

How the results depend on the processing

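Each comparison was refitted with DESeq2, with its size factors in edgeR, without a filter on low counts, with the replicate number as a block, with voom and sample quality weights, with only the groups compared, and without each library. The 3 libraries that stood apart were also left out together, a choice made after the data had been seen. For the 80 log2 fold changes of the planned comparisons these refits, other than those without single libraries, gave 552 values, of which 507 kept direction and call, 18 passed and 3 fell short of the threshold, and 24 turned sign. Of the 160 lowest and highest values without single libraries 131 kept both, 2 passed, 1 fell short and 26 turned sign. For the 32 of the added contrasts 209 of 224 and 61 of 64 values kept both, 15 and 1 passed, and 0 and 2 turned sign. All 48 group levels and 8 likeness values moved by less than the spread under other size factors. The cause of the differences below was not tested. Between the P10 and P2 periods the number of members called, 1 in edgeR, was 2 in DESeq2, 0 without the filter (Fdft1 adjusted p = 0.0548), 4 in voom, 2 without the 3 libraries, 2 in the added fit of P13 against P5 and 1 to 2 without single libraries. With the replicate block it was 2, Sqle being added (-0.74, adjusted p = 0.0326), and it moved the count for P13 against P5 from 2 to 3 (Hmgcs1 -0.86, adjusted p = 0.0366) and changed no other count of members called, while the genes called at baseline went from 709 to 1008. Same-numbered libraries of those groups correlated at -0.07 to 0.10, and 2 of 6 were closest to their own number. At baseline DESeq2 and voom each called 1 member in place of 0. Between the sham groups the 1 call became 0 without the filter (adjusted p = 0.0713), 0 with only the groups compared, and 0 to 1 without single libraries. Between the resected groups DESeq2, voom, the fit of only the groups compared and the fit without the 3 libraries each called 2 in place of 0. For P10 sham against P10 baseline DESeq2 called 2 in place of 0. In the added contrasts DESeq2 called 4 in place of 2 (P13 against P5, where the fits without the filter, with the block, with only the groups compared, in voom and without the 3 libraries each called 3, adding Hmgcs1 at adjusted p = 0.0257, 0.0366, 0.0459, 0.0244 and 0.0271), 2 in place of 0 (P13 against P10 baseline, where the fit without the filter also called 2 and voom 1) and 2 in place of 0 (age effect after resection minus at baseline, voom 1). Genes called over the whole table differed by more than 1.5 times between the periods (2183 in edgeR, 4569 in voom) and at baseline (709, with 1573 in DESeq2, 1155 without the filter, 3645 in voom and 295 with only the groups compared). They did so between the sham groups (515, with 1182 in DESeq2, 911 without the filter and 125 with only the groups compared) and the resected groups (139, with 505, 526 and 332 in the same order, and 908 in voom). For P13 against P5 they were 1170, with 1818 in DESeq2 and 1973 in voom. Without the 3 libraries they were 3778 between the periods, 2820 at baseline, 451 between the resected groups and 913 for resection over both ages. In the planned comparisons with 0 or 1 call, DESeq2 called 24 to 138 genes and the fit without the filter 24 to 151, the highest for P10 sham against P10 baseline, and voom called 51 for resection over both ages.

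Some folds of members turned sign, and none of these was called with either sign (adjusted p of at least 0.636 where the sign turned). With all libraries, Fdps after sham surgery was 0.013 under the replicate block, and Lss in P2 sham against P2 baseline was 0.007 in DESeq2, 0.006 with its size factors and 0.049 under the replicate block. Hmgcs1 in the difference of the resection effects was 0.026 under the replicate block. In voom the values that turned were -0.113 for Hmgcs1, -0.291 for Idi1 and 0.131 for Lss at baseline, 0.158 for Fdps between the sham groups, 0.007 for Hmgcs1 and -0.039 for Dhcr7 in P10 resected against P10 sham, 0.245 for Hmgcs1 in the difference of the resection effects, -0.127 for Fdft1 in resection over both ages, and 0.306 for Lss and 0.009 for Srebf2 in P2 sham against P2 baseline. Without the 3 libraries they were 0.079 for Dhcr7 between the periods, -0.206 for Hmgcs1 and 0.221 for Lss at baseline, 0.415 for Fdps, 0.152 for Dhcr7 and 0.011 for Srebf2 between the sham groups, -0.231 for Dhcr7 in P10 resected against P10 sham, 0.055 for Hmgcs1 in the difference of the resection effects and -0.236 for Fdft1 in resection over both ages. Without single libraries, the log2 fold change between the periods ranged from -0.133 to 0.229 for Fdps, -0.253 to 0.004 for Dhcr7 and -0.042 to 0.084 for Srebf2. At baseline it ranged from -0.205 to 0.567 for Hmgcs1, -0.069 to 0.72 for Sqle, -0.093 to 0.628 for Fdft1, -0.638 to 0.302 for Lss and -0.266 to 0.507 for Dhcr7. Between the sham groups it ranged from -0.562 to 0.247 for Fdps and -0.411 to 0.229 for Dhcr7. For P2 resected against P2 sham it ranged from -0.529 to 0.227 for Hmgcs1, -0.517 to 0.073 for Idi1 and -0.145 to 0.324 for Lss. For P10 resected against P10 sham it ranged from -0.247 to 0.079 for Hmgcs1, -0.113 to 0.174 for Sqle, -0.631 to 0.458 for Idi1, -0.232 to 0.408 for Dhcr7 and -0.002 to 0.313 for Srebf2. For the difference of the resection effects it ranged from -0.292 to 0.464 for Hmgcs1 and -0.396 to 0.692 for Idi1. Over both ages it ranged from -0.297 to 0.081 for Hmgcs1, -0.433 to 0.112 for Idi1, -0.131 to 0.112 for Fdft1 and -0.524 to 0.019 for Fdps. It ranged from -0.439 to 0.419 for Lss in P2 sham against P2 baseline and from -0.767 to 0.004 for Hmgcs1 in P10 sham against P10 baseline. In the added contrasts it ranged from -0.74 to 0.034 for Dhcr7 in P13 against P10 baseline and from -0.586 to 0.193 for Dhcr7 in the age effect after sham surgery minus at baseline. Fdps and Idi1 had the lowest counts of the 8 genes, as few as 3 and 6 in a library, and reads they share with other genes were left out.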
